A study of Mus musculus with 24 samples.

Results

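The 10 early genes Egr1, Egr3, Egr4, Nr4a1, Nr4a2, Nr4a3, Arc, Ier2, Ier3 and Btg2 were followed through mouse dorsal root ganglia, the clusters of sensory neuron cell bodies beside the spinal cord. They were chosen by name, with earlier results of these data known, and all 10 are among the 20782 genes of the deposited table. RNA was sequenced from 24 libraries in 8 groups of 3. In 4 groups adult lumbar ganglia had been dissociated, plated at low density on laminin in Neurobasal-A with B-27, and harvested 6, 12, 24 and 36 h later. Adult L4-5 ganglia were taken after a peripheral lesion or after a sham operation, and embryonic lumbar ganglia were taken at E17.5 and at E12.5. The labels give neither strain, sex nor adult age, name no transgene, and do not state how long after the lesion the ganglia were collected. Cells were isolated by sorting according to text that is attached to all libraries alike, and it is not said whether the embryonic ganglia and those from surgery were sorted as well. The labels do not tie libraries to separate animals, so p-values measure the spread between these libraries, which may be technical.

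Early genes are switched on within minutes of a stimulus, without need for new protein, when signalling from receptors or calcium entry activates factors such as CREB and SRF that already sit at their promoters. In neurons they are used as marks of recent activity, growth factor signalling or injury. Egr1, Egr3 and Egr4 encode zinc finger transcription factors that bind GC-rich sites. Nr4a1, Nr4a2 and Nr4a3 (also called Nur77, Nurr1 and Nor1) encode orphan nuclear receptors that act as transcription factors without a classical ligand. Arc encodes a protein that takes part in endocytosis of AMPA receptors at synapses. Ier2 encodes a nuclear protein, Ier3 a stress-induced protein linked to cell survival, and Btg2 an antiproliferative protein that recruits the CCR4-NOT deadenylase to mRNA.

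Values are read counts that the authors had divided by 1 factor per library, called normalized reads here, and each library held between 3.10 and 25.7 M reads. The shallowest cultures were 6 h replicate 3, 12 h replicate 1 and 24 h replicate 1, with 3.65, 3.14 and 4.57 M reads. E17.5 replicates 2 and 3 held 3.10 and 4.61 M. Replicates within a group correlated at 0.971 to 0.993 (Pearson, log2 scale, across genes), and no pair came near sampling noise, the lowest chi-square per degree of freedom being 4.44. The highest were 41.6 and 38.5, for E12.5 replicate 3 against replicates 1 and 2, followed by 18.3 for 12 h replicates 1 and 3. All 14 listed sensory neuron markers were detected in all 8 groups, and so were the 9 listed Schwann cell and 6 satellite glia markers. In such bulk RNA, fewer cells of a type and less RNA per cell cannot be told apart. By the library numbers in the titles, the E17.5 libraries run on directly into the cultures, while the E12.5 libraries lie nearer to those of the operated ganglia. Library run and group therefore cannot be told apart for E17.5 against E12.5, for cultures against sham ganglia or for sham ganglia against E17.5.

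The bases before the start of transcription are shown for the 4 genes whose promoters held the most motif matches among the 6 genes with an entry (Nr4a1, Nr4a2, Nr4a3, Btg2, Egr4 and Ier3), because these are where the factors that drive early genes are known to act. They are the 250 bases upstream of the RefSeq start in GRCm38.p6, at chr15:101266596-101266845 on the plus strand for Nr4a1, chr2:57124004-57124253 on the minus strand for Nr4a2, chr4:48045055-48045304 on the plus strand for Nr4a3 and chr1:134079156-134079405 on the minus strand for Btg2. Each runs 5′ to 3′ along the gene, and capitals mark matches to a cAMP response element (CRE, TGACGTCA), its first 5 bases alone (TGACG, here the short CRE, on either strand), an Egr site (GCGTGGGCG or GCGGGGGCG) or a TATA box (TATAAA).
Nr4a1: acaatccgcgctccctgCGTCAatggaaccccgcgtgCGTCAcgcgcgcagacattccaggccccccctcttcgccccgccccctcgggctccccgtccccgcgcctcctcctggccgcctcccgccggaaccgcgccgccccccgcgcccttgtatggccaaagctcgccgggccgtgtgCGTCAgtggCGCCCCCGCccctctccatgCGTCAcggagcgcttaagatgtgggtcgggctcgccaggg
Nr4a2: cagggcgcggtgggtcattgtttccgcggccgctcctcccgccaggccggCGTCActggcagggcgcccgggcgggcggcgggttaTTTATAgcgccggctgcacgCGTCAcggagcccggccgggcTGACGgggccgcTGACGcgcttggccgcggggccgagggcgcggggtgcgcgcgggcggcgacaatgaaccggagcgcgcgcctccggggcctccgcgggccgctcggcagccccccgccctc
Nr4a3: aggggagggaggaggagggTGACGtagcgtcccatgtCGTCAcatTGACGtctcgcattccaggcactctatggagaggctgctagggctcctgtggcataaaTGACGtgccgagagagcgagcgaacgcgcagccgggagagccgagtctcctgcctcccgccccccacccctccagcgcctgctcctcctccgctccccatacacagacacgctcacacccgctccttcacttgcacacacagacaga
Btg2: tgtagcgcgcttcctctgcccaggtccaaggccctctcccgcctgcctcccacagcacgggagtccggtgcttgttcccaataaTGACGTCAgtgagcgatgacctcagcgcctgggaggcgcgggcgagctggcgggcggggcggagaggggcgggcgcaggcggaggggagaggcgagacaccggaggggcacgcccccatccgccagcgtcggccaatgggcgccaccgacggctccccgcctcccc
Btg2 held a full CRE from -166 to -159, counted from the start, whose letters contain a short CRE on each strand. Nr4a1 held 4 short CREs and an Egr site on its minus strand from -60 to -52. Nr4a2 held 4 short CREs and TATAAA on its minus strand from -164 to -159, and Nr4a3 held 4 short CREs. A short CRE lay in 5 of the 6 promoters, against 20.8% of 32851 promoters of the same 300 bases, which reach 50 bases past the start. A full CRE lay in 1 of 6 (1.79% of all), an Egr site in 1 of 6 (3.47%) and TATAAA in 1 of 6 (13.6%). Neither a CArG box (CC, 6 A or T, GG), which SRF binds, nor AAAGGTCA, the element that Nr4a receptors bind as monomers, matched in any of the 6, against 1.63% and 1.51% of all promoters. Matches are letters in this window only. The RefSeq starts of Nr4a1, Nr4a3 and Ier3 lie inside the longer GENCODE genes. The window of Nr4a1 thus lies within its gene, and those of Nr4a3 and Ier3 overlap the first bases of theirs. For Nr4a3 the printed bases from chr4:48045153 onward lie in the GENCODE gene.

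Egr1, the best known member of its family, was highest in fresh cultures and lowest at E12.5. In culture it stood at 3728, 3919.9 and 3805 normalized reads at 6 h, at 2334, 2834 and 3403 at 12 h, at 1754, 2607 and 2373 at 24 h, and at 981, 1365 and 1244 at 36 h. The libraries at 36 h all lay below those at every earlier time, yet above every library that had not been plated. Ganglia with a lesion held 457, 417 and 271, sham ganglia 275, 178 and 230.0, E17.5 ganglia 245, 159 and 257 and E12.5 ganglia 89.5, 117 and 141. Lesion and sham overlapped by their nearest libraries, whereas E17.5 and E12.5 did not overlap. The mean at 6 h, 3818 ± 96.5 (SD, n = 3), was 32.9 times that at E12.5, 116 ± 25.9.

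Egr3, a relative of Egr1 needed in mice for muscle spindles, was near 70 to 80 at all times in culture, with means of 74.0 ± 13.6, 79.0 ± 28.3, 71.8 ± 14.6 and 71.0 ± 31.6 (SD, n = 3 each). It held 75.9, 71.8 and 50.3 after lesion, against 48.2, 30.0 and 41.9 after sham operation. E17.5 ganglia had 22.3, 28.2 and 80.9, against 4.39, 4.50 and 0.721 in E12.5 ganglia. At E17.5 a single library of 4.61 M reads stood well above the others, and E12.5 stood below every library of the other groups. Egr4 rested on few reads everywhere: 10, 35, 25 and 15 reads over the 3 libraries at 6, 12, 24 and 36 h, 16 after lesion, 9 after sham operation, 1 at E17.5 and 0 at E12.5. A count of 0 allows up to 0.630 normalized reads at E12.5 over the group (3 reads, counting error only). Its highest library, 24 h replicate 1 at 14.8, came from 6 reads at low depth, and Egr4 passed the filter in no comparison.

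The Nr4a receptors did not move as a family. Nr4a1 increased along the culture series, with 281, 270.5 and 190.4 at 6 h, 284, 371 and 367 at 12 h, 416, 511 and 399 at 24 h and 570.3, 608 and 623 at 36 h. It held 543, 459 and 469 after lesion, against 420.2, 349 and 393 after sham operation, and 365, 279 and 469 at E17.5, against 75.8, 70.7 and 90.1 at E12.5. The libraries at 36 h stood above all others, and those at 6 h lay below every library of sham ganglia.

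Nr4a2, known for its role in dopamine neurons, had 225, 180.3 and 229 at 6 h, 191, 195 and 213 at 12 h, 189, 154 and 152 at 24 h and 191, 91.5 and 171 at 36 h. It held 157, 194 and 149 after lesion, against 75.8, 92.8 and 106 after sham operation, and 76.9, 70.5 and 90.2 at E17.5, against 174, 205 and 161 at E12.5. Sham and E17.5 ganglia were the low groups and overlapped each other. Its range was the narrowest of the 9 members with reads in all groups, 2.67-fold between 6 h and E17.5.

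Nr4a3 was sparse, with 18.2, 33.0 and 38.8 at 6 h, 3.90, 25.3 and 26.6 at 12 h, 12.3, 11.4 and 13.0 at 24 h and 4.31, 0 and 5.54 at 36 h. The low 12 h value came from 1 read in the shallowest culture. Ganglia with a lesion held 18 reads in all, sham ganglia 15 and E17.5 ganglia 6, while E12.5 ganglia held 104 reads and values of 29.1, 23.8 and 10.1. The lowest of these is 14 reads in replicate 3, the whole number nearest to the mean of all 24 libraries after trimming a share of 0.2 at each end (9.82). Whether it is that library's own count was not tested.

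Arc was highest in cultures, followed by lesion, sham, E17.5 and E12.5 ganglia, and the last 4 groups did not overlap. In culture it had 251, 257 and 243 at 6 h, 152, 295 and 329 at 12 h, 221, 320.3 and 242 at 24 h and 212, 326 and 316 at 36 h. The shallowest culture, 152 at 12 h, fell among the lesion values, and the other cultures stood above them. Ganglia with a lesion held 183, 107 and 161, against 91.5, 95.8 and 93.5 in sham ganglia. E17.5 ganglia had 43.7, 42.3 and 39.3, against 26.3, 14.1 and 5.77 in E12.5 ganglia.

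Ier2 and Btg2 were highest at E12.5. Ier2 had 290.4, 309 and 342 at 6 h, 199, 497 and 391 at 12 h, 309.9, 377 and 242 at 24 h and 281, 527 and 469 at 36 h. After lesion it held 136, 81.8 and 131, against 93.5, 73.1 and 88.9 after sham operation, which overlap, and 86.6, 84.7 and 201 at E17.5, against 561, 490.2 and 726 at E12.5. Btg2 had 837, 708 and 617 at 6 h, 803, 796 and 741 at 12 h, 1021, 911 and 794 at 24 h and 849, 752 and 749.6 at 36 h. Every culture library of Btg2 stood above every adult library that had not been plated. It held 500.0, 428 and 418 after lesion, against 175, 189 and 193 after sham operation, and 179, 205 and 169 at E17.5, against 1911, 1779 and 978 at E12.5.

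Ier3 had the widest ratio of the 9 members with reads in all groups, 55.6-fold between 36 h and E12.5. It had 804, 772 and 681 at 6 h, 744, 1033 and 1065 at 12 h, 1198, 1415 and 1205 at 24 h and 1283, 1537 and 1567 at 36 h. Lesion and sham ganglia overlapped, with 245, 224 and 267 after lesion, against 202, 272 and 266 after sham operation. E17.5 ganglia held 151, 145 and 227, against 31.3, 23.8 and 23.8 in E12.5 ganglia.

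**Figure D1:**
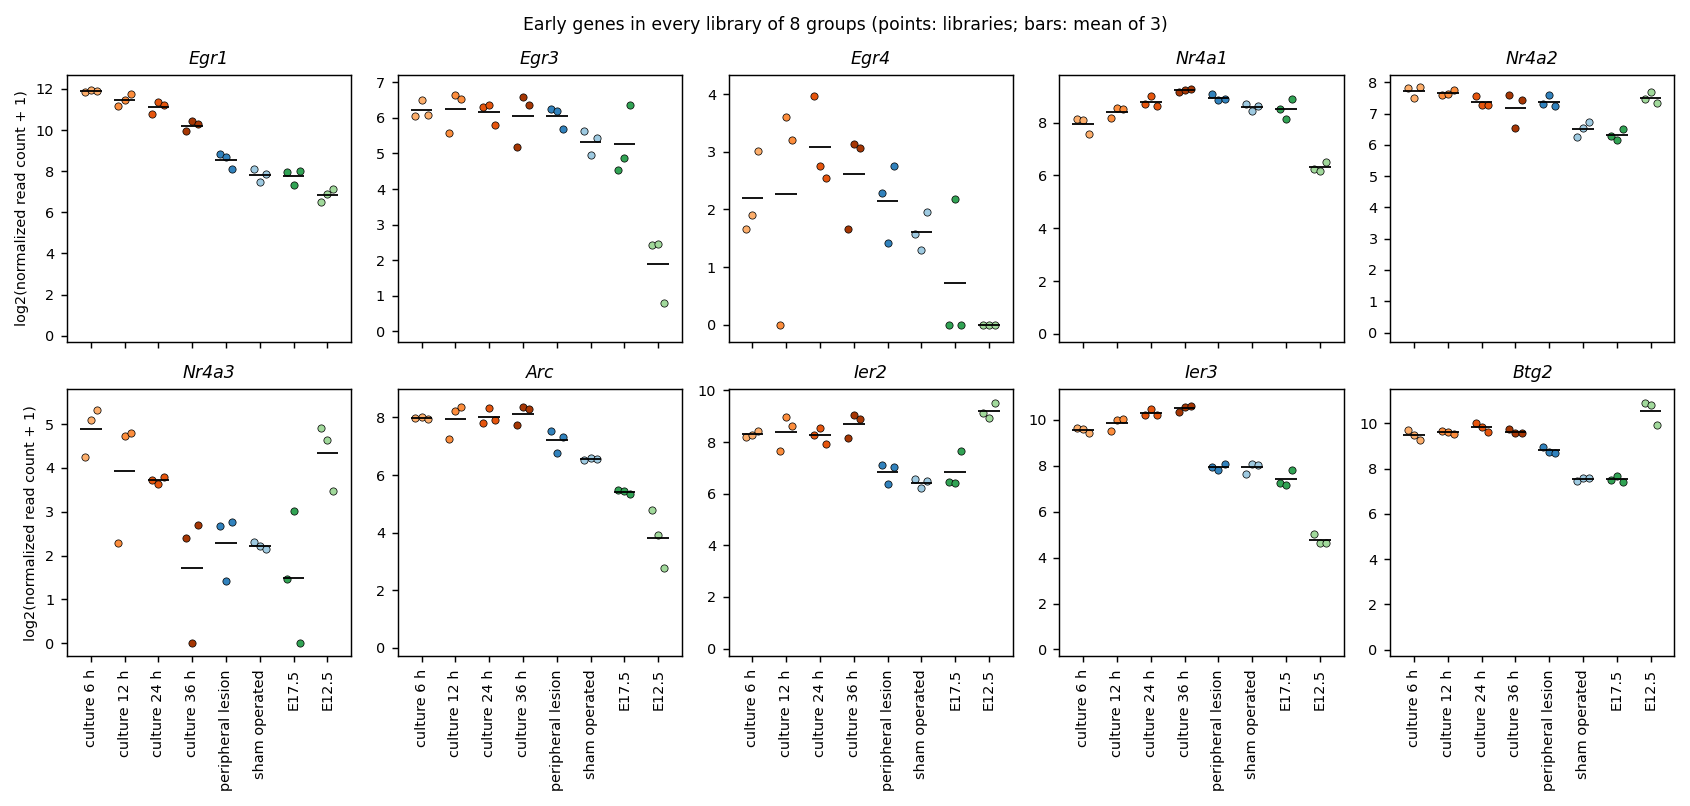
Normalized reads of the 10 genes on the log2(value + 1) scale, 1 point per library and 1 line per group mean. Egr1, Arc, Ier3 and Btg2 stand higher in cultures than in sham ganglia, while Btg2 and Ier2 are highest at E12.5.

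Levels of different genes were compared per kilobase of merged exons (GENCODE M21). At 6 h Egr1 was the most abundant member, at 851 normalized reads per kilobase, ahead of Ier3 at 665, and at 36 h Ier3 led with 1293, ahead of Btg2 at 286. In lesion ganglia Ier3 and Btg2 led with 217 and 164 per kilobase, and in sham ganglia Ier3 and Nr4a1 led with 218 and 110. At E17.5 Ier3 and Nr4a1 led with 154 and 106, and at E12.5 Btg2 and Ier2 led with 567 and 389, against 23.2 for Ier3. The leading early transcript therefore differed by group, with Egr4 and Nr4a3 at the bottom in all groups but E12.5, where Egr3 and Egr4 were last. All 10 are protein-coding genes, and none shares its span with another annotated gene in mm10. Arc, for example, lies on chromosome 15 (74669083 to 74672570, minus strand) and Ier3 on chromosome 17 (35821684 to 35822923, plus strand).

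Over the 8 group means, on the log2(value + 1) scale, the members were compared in pairs, and no grouping was computed. Arc went with Egr4 (Pearson's r = 0.97), Ier3 (0.96), Egr3 (0.89) and Egr1 (0.87). Btg2 went with Ier2 (0.92), Nr4a2 (0.86) and Nr4a3 (0.71), and with Arc at 0.08. Nr4a1 went with Egr3 (0.88), Ier3 (0.75) and Arc (0.73), and with Egr1 at 0.38. Egr1 and Nr4a2 stood at 0.59, and Nr4a1 and Nr4a3, from 1 family, at -0.63. These coefficients describe 8 points that share libraries, scaling and, for Egr4 and Nr4a3, few reads.

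Plated ganglia at 6 h held more of nearly all members than sham ganglia. Of the 8 members with a value of at least 10 in some library of each group, 7 were higher and 1, Nr4a1, was lower, and Egr1 rose most, followed by Btg2. Nr4a3 was called higher as well, but it passed the filter through cultures alone and is left out of this count. Of all 15256 genes in this fit, 24.2% were called higher and 24.2% lower. A gene was called where its adjusted p lay under 0.05 in limma, adjusted by Benjamini-Hochberg over all genes tested, and differences are log2(value + 1) with SE. The median difference was 1.51 over the 8 members and -0.05 over all genes.

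Egr1 differed by 4.09 ± 0.18 (limma adjusted p = 9.0e-12) and Egr3 by 0.88 ± 0.35 (limma adjusted p = 0.0447). The call for Egr3 was lost in 9 of 24 alternatives, those without any single 6 h library, sham replicate 2 or sham replicate 3 among them (limma adjusted p = 0.0637 to 0.166 for these), and the other 8 calls held in all 24. Among the receptors, Nr4a1 fell by 0.66 ± 0.16 (limma adjusted p = 0.00241), with a mean of 247 ± 49.5 in 6 h cultures and 387 ± 36.1 in sham ganglia (SD, n = 3 each). Nr4a2 rose by 1.20 ± 0.23 and Nr4a3 by 2.66 ± 0.70 (limma adjusted p = 3.2e-04 and 0.00458). Nr4a3 rested on 96 reads in 6 h cultures and 15 in sham ganglia. Arc rose by 1.41 ± 0.24, Ier2 by 1.87 ± 0.28, Ier3 by 1.62 ± 0.15 and Btg2 by 1.94 ± 0.13, with limma adjusted p of 1.1e-04, 3.1e-05, 1.5e-07 and 1.5e-09.

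At 36 h 7 of these 8 members were higher than in sham ganglia and 0 lower, against 32.1% higher and 31.9% lower of all genes. At an unadjusted p under 0.05 limma likewise had 0 lower, as did edgeR and DESeq2 after adjustment. Nr4a1 now stood above sham ganglia by 0.63 ± 0.16 (limma adjusted p = 0.00205), with a mean of 600.4 ± 27.2 at 36 h and 387 ± 36.1 in sham ganglia (SD, n = 3 each), the opposite side from 6 h. Ier3 differed by 2.57 ± 0.15, Btg2 by 2.07 ± 0.13 and Egr1 by 2.40 ± 0.18 (limma adjusted p = 1.4e-10, 2.4e-10 and 2.7e-09). Ier2 differed by 2.27 ± 0.28, Arc by 1.57 ± 0.24 and Nr4a2 by 0.66 ± 0.23 (limma adjusted p = 1.5e-06, 1.7e-05 and 0.0167). The call for Nr4a2 was lost without 36 h replicate 1, 36 h replicate 3 or sham replicate 1 (limma adjusted p = 0.103, 0.0758 and 0.0815). Egr3 (0.72 ± 0.35) and Nr4a3 (-0.52 ± 0.70) did not pass, with limma adjusted p of 0.0792 and 0.532. Egr3 was called by edgeR (edgeR adjusted p = 0.0239) and DESeq2 (DESeq2 adjusted p = 0.0237), and by limma without 12 h replicate 1 or 36 h replicate 1 (limma adjusted p = 0.0419 and 0.00527). Of the members higher at 6 h, Egr3 and Nr4a3 were thus the ones not called at 36 h.

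A wider list of 59 other early genes, all in the table, was counted beside the members. It holds 24 other transcription factors such as Fos and Jun, 18 feedback phosphatases, kinases and decay factors such as the Dusp genes, 14 effectors such as Bdnf, the Egr corepressors Nab1 and Nab2, and Btg1. At 6 h 45 of the 59 were higher than in sham ganglia and 5 lower, beside 24.2% of all genes in each direction. At 36 h the counts were again 45 and 5, beside 32.1% and 31.9%. Fosl1, which encodes the AP-1 subunit FRA1, averaged 710.3 ± 185 at 6 h and 0.763 ± 0.207 in sham ganglia, and Fosb, another AP-1 subunit, 2083 ± 128 at 6 h and 15.0 ± 5.47 in sham ganglia (SD, n = 3 each). Ptgs2, which encodes cyclooxygenase-2 (COX-2), averaged 527 ± 157 at 36 h and 5.45 ± 0.744 in sham ganglia. Fosl1 and Ptgs2 thus stayed under 10 in sham ganglia and passed the filter through cultures alone. Counts of the wider list, here and below, keep such genes, and no count was made without them. The largest falls were of Amigo3, a cell surface protein with leucine-rich repeats, at both times (676 ± 132 at 6 h and 159 ± 8.68 at 36 h, against 1828 ± 71.5 in sham ganglia). Next came Nab2 at 6 h (83.9 ± 21.6, against 157 ± 10.4 in sham ganglia) and Rgs2, a regulator of G protein signalling, at 36 h (65.0 ± 10.9, against 288 ± 28.6 in sham ganglia).

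Other markers moved with these differences. The summed level of the 9 macrophage markers in the table was 215 to 292 at 6 h and 420.0 to 442 at 36 h, against 1008 to 1094 in sham ganglia. That of the 14 sensory neuron markers was 217110 to 258676 at 6 h and 118705 to 163935 at 36 h, against 403902 to 446050 in sham ganglia. The 9 Schwann cell markers summed to 33896 to 41988 at 6 h and 30706 to 36117 at 36 h, against 89508 to 110125 in sham ganglia. The 6 satellite glia markers summed to 19182 to 21193 at 6 h and 22046 to 25973 at 36 h, against 44800.3 to 53094 in sham ganglia, and the 6 fibroblast markers to 2211 to 2715 at 6 h and 3524 to 3816 at 36 h, against 7800.0 to 10124 in sham ganglia. Red blood cell markers (5) summed to 539 to 778 at 6 h and 203 to 461 at 36 h, against 4600.3 to 4999 in sham ganglia. Of the 5 markers of smooth muscle and pericytes, 3 were called lower at each time. Of the 7 endothelial markers, 3 were called higher and 1 lower at 6 h, and 6 were called higher at 36 h. Dividing cell markers (6) had 1 called lower at 6 h and 2 called higher at 36 h. No marker of these lists was at 0 in a group, and their part in the differences was not tested.

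Between plating times the members diverged: Egr1 and Nr4a3 declined, Nr4a1 and Ier3 increased, and Egr3, Nr4a2, Arc, Ier2 and Btg2 did not pass. The F test over the 4 times called 4 of 9 tested members, against 45.7% of 15006 genes, so the share is near that of all genes. Its limma adjusted p was 6.2e-06 for Egr1, 9.6e-05 for Nr4a1, 2.6e-04 for Ier3 and 0.0140 for Nr4a3. Without 36 h replicate 2, where Nr4a3 had 0 reads, the limma adjusted p of Nr4a3 was 0.0542. For the other 5 it ran from 0.183 for Nr4a2 to 0.960 for Egr3.

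At 36 h 2 of 9 tested members were higher and 2 lower than at 6 h, near the 25.3% of all genes in each direction. Nr4a3, 1 of the lower ones, stayed under a value of 10 in every library at 36 h and so passed the filter through earlier times. Without Nr4a3, 2 of 8 were higher and 1 lower. Egr1 fell by 1.69 ± 0.17 (limma adjusted p = 9.4e-07), with a mean of 1197 ± 196 at 36 h and 3818 ± 96.5 at 6 h (SD, n = 3 each). Nr4a3 fell by 3.18 ± 0.74 (limma adjusted p = 0.00227), on 10 reads at 36 h and 96 at 6 h. Nr4a1 rose by 1.30 ± 0.17 and Ier3 by 0.96 ± 0.15 (limma adjusted p = 1.4e-05 and 6.9e-05). These 4 were the members, of 9 tested, without overlap between the times, beside 8850 of all 15006 genes. Nr4a2 had a difference of -0.54 ± 0.23 (limma adjusted p = 0.0627), and was called lower with 1 spread over all 24 libraries, without 12 h replicate 1 or without 36 h replicate 1 (limma adjusted p = 0.0344, 0.0480 and 0.0202). For Arc the difference was 0.16, with a 95% interval of -0.38 to 0.70, and for Btg2 0.13, with an interval of -0.16 to 0.42. Neither interval holds a 2-fold difference, whereas that of Ier2, -0.23 to 1.01, does.

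Between neighbouring times few differences passed. From 6 h to 12 h 0 of 9 members were called (5.86% of all genes higher, 4.72% lower), though 3 had an unadjusted limma p under 0.05, and edgeR and DESeq2 called 0 as well. Without the shallow 12 h replicate 1 this count became 2, Nr4a1 and Ier3 (limma adjusted p = 0.0222 and 0.0160). From 12 h to 24 h 0 were called (4.82% higher, 6.74% lower), with 2 at an unadjusted limma p under 0.05, 0 by edgeR and 1, Ier3, by DESeq2. Without 12 h replicate 1 limma called 1, Egr1 (limma adjusted p = 0.0459). From 24 h to 36 h Egr1 fell by 0.90 ± 0.17 (limma adjusted p = 0.0109) and 0 were higher, against 1.11% higher and 1.55% lower of all genes. At an unadjusted limma p under 0.05, 1 was higher and 2 were lower, and edgeR and DESeq2 gave the same adjusted counts as limma. Without 24 h replicate 2 or 3 the call for Egr1 was lost (limma adjusted p = 0.0640 and 0.0701).

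Of the 59 wider genes, 10 were higher and 21 lower at 36 h than at 6 h, beside 25.3% of all genes in each direction. Fosb fell by 5.57 ± 0.23 (limma adjusted p = 1.5e-10), with a mean of 43.9 ± 12.3 at 36 h and 2083 ± 128 at 6 h, and Rgs2 fell by 2.17 ± 0.24 (limma adjusted p = 2.6e-06). Ier5l, a relative of Ier5, averaged 205 ± 134 at 36 h and 14.6 ± 8.76 at 6 h, and Nab2, a corepressor that binds Egr1 and Egr3, 250.01 ± 53.2 at 36 h and 83.9 ± 21.6 at 6 h (SD, n = 3 each). The other Egr corepressor, Nab1, was called lower. In steps, 3 were higher and 8 lower from 6 h to 12 h, and 1 and 8 from 12 h to 24 h. From 24 h to 36 h the counts were 0 and 1, that 1 being Fosb. Shares of all genes at these steps stand above. Fosb fell most at both of the first steps, with differences of -1.17 ± 0.23 and -2.67 ± 0.23 (limma adjusted p = 0.00437 and 4.4e-06). Amigo3 fell as well from 12 h to 24 h (-1.14 ± 0.27, limma adjusted p = 0.0116). Trib1 and Vgf rose most at the first step and Dusp6, an ERK phosphatase, at the next (limma adjusted p = 0.00246, 0.0370 and 0.0143).

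**Figure D2:**
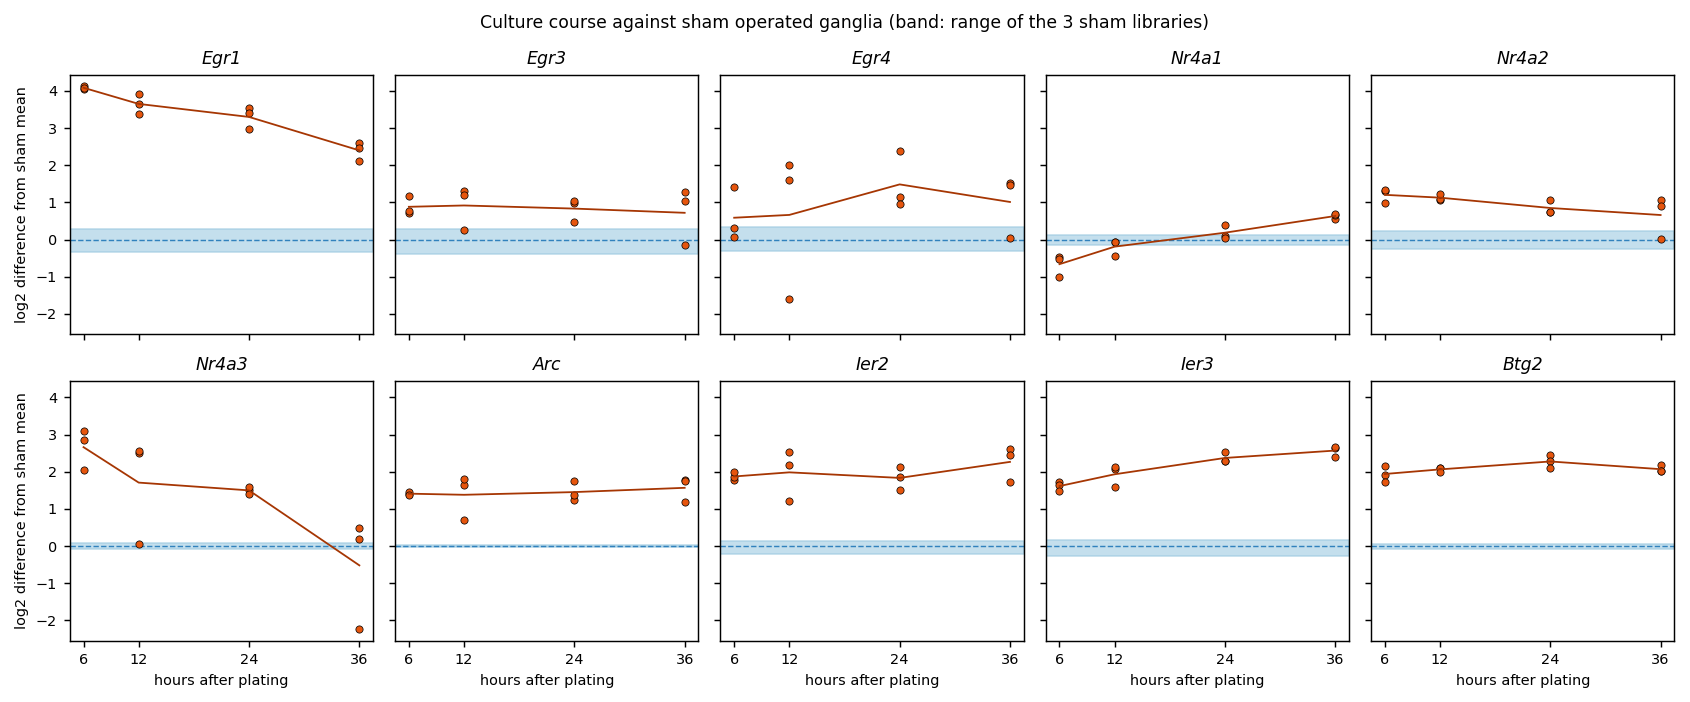
The 10 genes at 6, 12, 24 and 36 h after plating, as differences from the sham mean on the log2(value + 1) scale, with 1 point per library, a line through the means and a band for the range of the 3 sham libraries. Egr1 and Nr4a3 decline, Nr4a1 crosses from below to above the sham level and Ier3 climbs.

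After a peripheral lesion 6 of 8 tested members were higher than after sham operation and 0 were lower. Egr1, Egr3, Nr4a1, Nr4a2, Arc and Btg2 rose, Btg2 most. Among all 14556 genes 20.9% were called higher and 20.2% lower, and the median difference was 0.68 over the 8 members and -0.01 over all genes. Limma had 0 lower at an unadjusted p under 0.05 too, and edgeR and DESeq2 called 0 lower. The sham libraries are the same as those set against the cultures above.

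Btg2 averaged 449 ± 44.8 after lesion and 186 ± 9.31 after sham operation (SD, n = 3 each), a difference of 1.26 ± 0.10 (limma adjusted p = 1.3e-06). Nr4a2 averaged 167 ± 23.8 after lesion and 91.6 ± 15.2 after sham operation, a difference of 0.86 ± 0.15 (limma adjusted p = 6.4e-04). These calls held in all 15 alternatives, and the others depended on single libraries. Egr1 differed by 0.73 ± 0.21, Egr3 by 0.71 ± 0.22, Arc by 0.64 ± 0.17 and Nr4a1 by 0.34 ± 0.10, with limma adjusted p of 0.0215, 0.0202, 0.00997 and 0.0137. Without lesion replicate 1, 2 members were called, and without sham replicate 2, 3 were. With 1 spread estimated over all 24 libraries 3 were called.

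Ier2 differed by 0.42 ± 0.19 with a 95% interval of 0.01 to 0.83 (limma adjusted p = 0.0935). It was called by edgeR (edgeR adjusted p = 0.0360) and without lesion replicate 2 (limma adjusted p = 0.00328). Ier3 had a difference of 0.00 ± 0.13 with a 95% interval of -0.27 to 0.27 (limma adjusted p = 0.992), which leaves out a change of the size seen for Btg2. The library titles fall into numbers 69 to 75 (2 libraries against 2) and 123 to 124 (1 against 1). Within these runs lesion minus sham was 1.34 and 1.11 for Btg2, 1.05 and 0.49 for Nr4a2 and 0.98 and 0.24 for Egr1. It was 0.94 and 0.26 for Egr3, 0.38 and 0.26 for Nr4a1 and 0.58 and 0.78 for Arc. Of the uncalled members, Ier2 had 0.35 and 0.56, and Ier3 -0.0017 and 0.0086. The calls came from these same libraries, so the values within runs are no separate support for them. Egr4 and Nr4a3 were not tested, with 16 and 18 reads after lesion, against 9 and 15 after sham operation.

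Of the wider list, 29 of 54 tested genes were higher after lesion and 4 lower, beside 20.9% and 20.2% of all genes. Atf3, a transcription factor known as a marker of axon injury in sensory neurons, averaged 9207 ± 1995 after lesion and 557 ± 28.8 after sham operation (SD, n = 3 each). Amigo3 fell by 0.71 ± 0.12 and Bdnf, a neurotrophin, by 0.45 ± 0.10 (limma adjusted p = 6.4e-04 and 0.00394). The summed level of the 9 macrophage markers was 2206 to 3382 after lesion and 1008 to 1094 after sham operation, with 8 of 9 called higher. That of the 14 neuron markers was 305296 to 335592 after lesion, against 403902 to 446050 after sham operation, with 2 called higher and 10 lower. All 6 fibroblast markers were called higher, with summed levels of 10243 to 12378 after lesion, against 7800.0 to 10124 after sham operation. The part of these cell types in the members' differences was not tested.

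**Figure D3:**
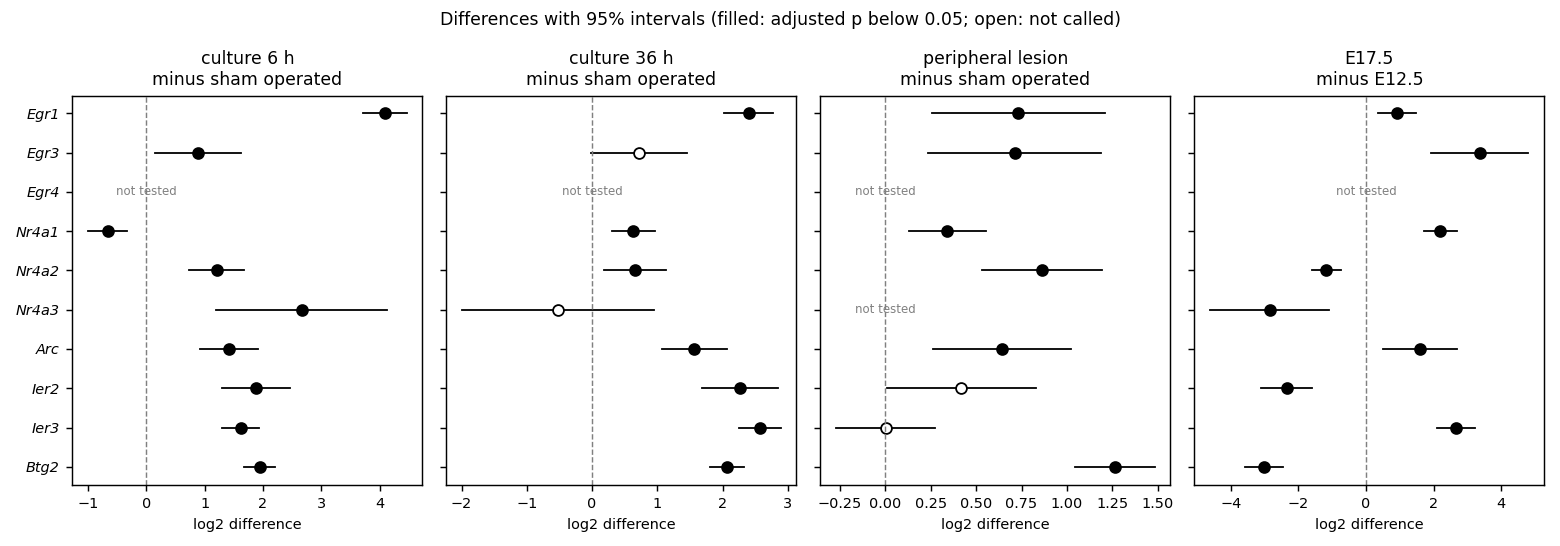
Log2 differences of the members with 95% intervals in 4 comparisons, with filled points where limma called the gene. After lesion Btg2 and Nr4a2 lie furthest to the right and Ier3 lies at 0, while at E17.5 the members lie on both sides.

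At E17.5 the members differed from E12.5 in both directions: Egr1, Nr4a1, Arc and Ier3 were higher at E17.5, and Nr4a2, Ier2 and Btg2 were lower. These are all 7 members with a value of at least 10 in some library of each stage, 4 higher and 3 lower. Egr3 (higher) and Nr4a3 (lower) were called too, but each passed the filter through its high stage alone and had to differ, so the 9 tested members give no count of their own. Of all 14550 genes 31.1% were called higher and 31.9% lower. The median difference was 0.91 over the 7 members and -0.05 over all genes.

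Among the transcription factors, Nr4a1 rose by 2.20 ± 0.22 (limma adjusted p = 3.8e-05), to a mean of 371 ± 95.5 at E17.5, against 78.8 ± 10.1 at E12.5 (SD, n = 3 each). Egr1 rose by 0.91 ± 0.24 (limma adjusted p = 0.0104), Nr4a2 fell by 1.17 ± 0.18 (limma adjusted p = 5.8e-04) and Nr4a3 fell by 2.85 ± 0.77 (limma adjusted p = 0.0110). Nr4a3 passed the filter only through E12.5 and Egr3 (limma adjusted p = 0.00165) only through E17.5, and neither could be tested once a library of that stage was left out. The receptors of this family thus moved in opposite directions between the stages. Of the effectors, Arc rose by 1.60 ± 0.48 (limma adjusted p = 0.0177), a call lost without E17.5 replicate 1 or 2 (limma adjusted p = 0.0611 and 0.0545). Ier2 fell by 2.35 ± 0.33 (limma adjusted p = 2.9e-04), with a mean of 124 ± 66.7 at E17.5 and 592 ± 121 at E12.5. For Ier3 and Btg2, whose values per library stand above, limma adjusted p was 2.9e-05 and 1.2e-05.

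Markers of dividing cells stood beside this: the 6 listed genes summed to 2775 to 3979 at E17.5, against 19966 to 21767 at E12.5, and all 6 were called lower. The 14 neuron markers summed to 162345 to 208926 at E17.5, against 43335 to 64773 at E12.5, with 13 called higher. Of the Schwann cell markers 7 of 9 were called higher (summed 15352 to 17388 at E17.5, against 2453 to 3669 at E12.5), and of the satellite glia markers 4 of 6 higher and 1 lower. Fibroblast markers had 4 of 6 higher and 1 lower (30943 to 39603 at E17.5, against 7816 to 17341 at E12.5), and red blood cell markers 3 of 5 higher (16402 to 27593 at E17.5, against 6077 to 9181 at E12.5). The part of these cells in the members' differences was not tested. In the wider list 19 of 56 tested genes were higher at E17.5 and 18 lower, near the shares of all genes (31.1% and 31.9%). Nptx2, a secreted synaptic pentraxin, averaged 1523 ± 241 at E17.5 and 65.8 ± 29.5 at E12.5, and Gadd45g, a growth arrest gene, 50.4 ± 32.5 at E17.5 and 470.1 ± 196 at E12.5 (SD, n = 3 each). Vgf, a neuropeptide precursor, was higher at E17.5, and Ier5l lower (limma adjusted p = 1.3e-04 and 0.0110).

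In sham-operated adults 1 of 8 tested members was higher than at E17.5 and 0 were lower, although 28.9% of all 14652 genes were called higher and 31.1% lower. Arc rose by 1.15 ± 0.18 (limma adjusted p = 4.9e-04), to a mean of 93.6 ± 2.13 in sham ganglia, against 41.8 ± 2.26 at E17.5 (SD, n = 3 each). Limma had 0 lower at an unadjusted p under 0.05, and edgeR and DESeq2 called 0 lower. Ier3 had a difference of 0.52 ± 0.20 (limma adjusted p = 0.0518) and was called with edgeR (edgeR adjusted p = 0.0299) and DESeq2 (DESeq2 adjusted p = 0.0224). Cell type markers differed widely: 8 of 9 Schwann cell markers were called higher (summed 89508 to 110125 in sham ganglia, against 15352 to 17388 at E17.5) and 6 of 6 dividing cell markers lower (240.3 to 356 in sham ganglia, against 2775 to 3979 at E17.5). Fibroblast markers had 1 of 6 higher and 4 lower (7800.0 to 10124 in sham ganglia, against 30943 to 39603 at E17.5), and all 5 red blood cell markers were lower (4600.3 to 4999 in sham ganglia, against 16402 to 27593 at E17.5). Their part in the members' values was not tested.

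The intervals of the others are the more informative values here. For Btg2 the difference was 0.02 with a 95% interval of -0.30 to 0.33, for Nr4a1 0.09 with -0.33 to 0.51, for Egr1 0.06 with -0.45 to 0.56 and for Nr4a2 0.20 with -0.24 to 0.64. None of these 4 intervals holds a 2-fold difference, but those of Egr3 (-0.93 to 1.08) and Ier2 (-1.14 to 0.29) do. Of the wider list, 18 of 55 tested genes were higher in sham ganglia and 18 lower, near the shares of all genes (28.9% and 31.1%). The largest were Atf3 (557 ± 28.8 in sham ganglia, against 48.3 ± 15.0 at E17.5) and Amigo3 (1828 ± 71.5 in sham ganglia, against 285 ± 95.6 at E17.5) among the higher, and Dusp4 (89.2 ± 6.06 in sham ganglia, against 412 ± 13.3 at E17.5) and the kinase gene Plk2 (333 ± 19.4 in sham ganglia, against 1248 ± 138 at E17.5) among the lower.

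**Figure D4:**
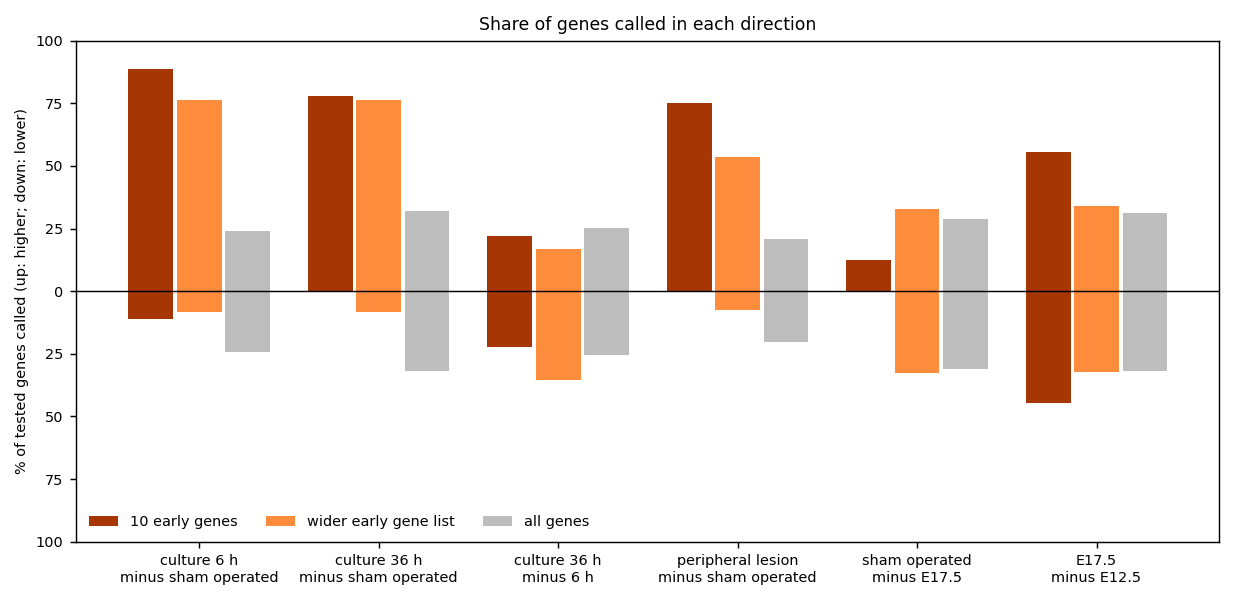
Share of tested genes called higher or lower in each comparison, for the members, the wider early gene list and all genes. The members' share called higher is 8 of 9 for 6 h cultures, Nr4a3 included, and 6 of 8 after lesion, and 1 of 8 for sham ganglia against E17.5. The members' bars also count Nr4a3 at 36 h against sham ganglia and against 6 h, and Egr3 and Nr4a3 at E17.5 against E12.5. At 36 h against sham ganglia Nr4a3 was low in both groups and not called, having passed the filter through earlier times in culture. In the other 2 comparisons these genes passed the filter only through groups where they are high. The bars for E17.5 against E12.5 therefore give no count of their own. For cultures against sham ganglia the bars of the wider list keep such genes too.

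Genes whose 8 group means were most like those of 3 members were named among 11915 genes with a highest mean of at least 100. For Egr1 these were Plekha1, Ago3 and Il1rn (r = 0.988, 0.987 and 0.987), for Nr4a1 Plxnb3, Adamtsl5 and Pld3 (0.996, 0.990 and 0.990), and for Arc Tmbim1, Gorasp2 and Gbp5 (0.997, 0.996 and 0.994). None of the other members was among them, and the closest ranked member to Egr1 was Arc at rank 482. Egr3, Egr4 and Nr4a3, with highest means of 79.0, 8.44 and 30.0, lay under 100 and could not be ranked or named. Likeness of pattern does not mean likeness of size, as Ago3 averaged 789 ± 68.0 at 6 h and 267 ± 8.17 at E12.5 (SD, n = 3 each), a far smaller range than that of Egr1.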

How the data were processed

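RNA-seq of mouse dorsal root ganglia was deposited by the authors as 1 table of 20782 genes and 24 libraries. Libraries came from a TruSeq V2 kit, per the labels. TopHat and mm10 are named in the submitters' processing notes. Not given in the sources used here are TopHat's version, the annotation, the counter, any filter on reads, and how reads of near-identical genes were counted. The deposited values are a signal, read counts divided by 1 factor per library. All 339612 checked values of up to 1000 reads were whole within 0.1 of a read (100%), so reads were recovered for count tests, which served as alternatives. Because the unit is normalized, limma 3.58.1 in R 4.3.3 was the main test, on log2(value + 1) with eBayes trend and robust. Genes with at least 10 in at least 3 libraries of a fit were tested, with Benjamini-Hochberg adjustment over them and a threshold of 0.05. E17.5 with E12.5 (6 libraries), lesion with sham (6), the cultures (12), cultures with sham (15) and sham with E17.5 (6) were fitted separately, without covariates. Libraries held 3.10 to 25.7 M reads, and floors cover counting error only.

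Alternatives were pseudocounts of 5 and 0.5, no filter, a filter of 20, TMM rescaling, 1 spread over 24 libraries, edgeR 4.0.16 and DESeq2 1.42.0 on recovered reads, each library left out in turn, a term for the run of library numbers in the lesion fit, and Spearman's likeness. Leaving out the 3 cultures under 5 M reads was chosen after seeing the data. The fits were tested on simulated data. The members and all lists were chosen with earlier results of these data known. Named genes were the members, per comparison the 2 largest rises and falls of the wider list with a higher mean of at least 100, and the 3 genes most like Egr1, Nr4a1 and Arc, leaving out symbols of uncharacterised genes. A gene that this rule took is not reported here. Gene spans are from GENCODE M21 and promoters from RefSeq (GRCm38.p6).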

Additional observations from a re-analysis of the deposited data

How the results depend on the processing

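Of 1728 recomputations of 88 member results, 1637 kept their direction and side of the threshold, 29 were no longer called, 19 became called and 43 changed sign. None of the 43 was called in either fit. The number of called members moved after lesion (6) to 3 with 1 spread over 24 libraries and to between 2 and 6 when a library was left out. For sham against E17.5 (1) it was 2 with TMM, 1 spread, edgeR or DESeq2, and 1 to 2 with a library left out. From 12 h to 24 h (0) it was 1 with DESeq2. With a library left out it ranged over 0 to 2 from 6 h to 12 h, 0 to 1 from 12 h to 24 h and 0 to 1 from 24 h to 36 h. Called genes of the wider list from 6 h to 12 h (11) were 7 without a filter and 5 to 17 with a library left out, and from 12 h to 24 h (9) 4 to 15 with a library left out. From 24 h to 36 h (1) they were 2 with 1 spread, 4 with DESeq2, 4 without the 3 shallow cultures and 1 to 3 with a library left out. The cause of these moves was not tested.

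Uncalled log2 differences that changed sign were, for Ier3 after lesion, -0.011 with TMM and -0.0018 with edgeR. From 6 h to 12 h they were 0.10 (edgeR), 0.071 (DESeq2) and 0.29 (without the 3 shallow cultures) for Arc, and, also without those 3, 0.017 for Nr4a2, 0.081 for Nr4a3 and -0.0036 for Btg2. From 12 h to 24 h Arc had -0.0095 (edgeR), -0.024 (DESeq2) and -0.16 (without the 3 shallow cultures). Nr4a3 at 36 h against sham had 0.059 (edgeR), and Egr3 in sham against E17.5 had -0.044 (DESeq2).

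With single libraries left out, differences that changed sign ran from -0.14 to 0.079 for Ier3 after lesion. From 6 h to 12 h they ran from -0.16 to 0.37 for Egr3, -0.24 to 0.31 for Arc and -0.17 to 0.49 for Ier2. From 12 h to 24 h they ran from -0.42 to 0.12 for Egr3, -1.03 to 0.22 for Nr4a3, -0.27 to 0.28 for Arc and -0.53 to 0.13 for Ier2. From 24 h to 36 h Egr3 ran from -0.39 to 0.32 and Nr4a2 from -0.39 to 0.13, and from 6 h to 36 h Egr3 ran from -0.44 to 0.27. Nr4a3 at 36 h against sham ran from -1.02 to 0.33. In sham against E17.5 the ranges were -0.16 to 0.22 for Egr1, -0.28 to 0.63 for Egr3, -0.10 to 0.27 for Nr4a1 and -0.043 to 0.095 for Btg2.

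On recovered reads edgeR called 9282 genes at E17.5 against E12.5, 6071 after lesion and 7234 over the culture times, against 9160, 5990 and 6859 with limma. DESeq2 called 9159, 5400 and 7683 in these comparisons. From 24 h to 36 h limma called 398 genes, edgeR 561 and DESeq2 1079. By Spearman's rho Plekha1 and Il1rn ranked 89 and 72 among genes like Egr1, and Gbp5 ranked 1061 for Arc, with many ties over 8 groups.

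No paired analysis was possible because the library numbers in the titles are not shared between groups. The smallest libraries limit Egr4 and Nr4a3 most: 1 read is worth 3.90 normalized reads in the shallowest culture.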
